A study of Mus musculus with 24 samples.

Results

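The genes described here are Ctgf, Cyr61, Nov, Wisp1 and Wisp2, which encode secreted CCN matricellular proteins, together with Ankrd1 and Amotl2, which are widely used as readouts of the transcriptional co-activators YAP and TAZ. They are 7 of the 47480 genes in the deposited count table, and all 7 passed the filter on low counts that left 14772 genes for testing. The table writes them with their older symbols; the current names are Ccn2 for Ctgf, Ccn1 for Cyr61, Ccn3 for Nov, Ccn4 for Wisp1 and Ccn5 for Wisp2. Ctgf was chosen by its measured rise with Dexa, so its Dexa values are given as a description without a test; the other 6 genes were taken as relatives or fellow YAP targets. The sixth CCN gene, Wisp3, is not among them: it had 1 count in a single library of the 24.

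The study profiled RNA of wild-type mouse embryonic fibroblasts, connective tissue cells grown in culture, in 8 groups of 3 libraries. All groups share the genotype, and they cross 3 factors: an siRNA (siCTRL, or siCop1 against Cop1, which picks substrates for a ubiquitin ligase), a compound (DMSO as vehicle, or KL001, which stabilises the cryptochrome repressors of the circadian clock), and Dexa, absent or present. The 8 groups are thus siCTRL DMSO, siCTRL KL001, siCop1 DMSO and siCop1 KL001, each without and with Dexa. The labels name no dose, time or siRNA sequence and do not say whether replicates came from separate cultures or embryos. The p-values therefore measure the spread between these libraries, which may be technical.

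CCN proteins are secreted into the extracellular matrix, where they bind integrins, heparan sulphate proteoglycans and growth factors and tune adhesion, matrix deposition and growth factor signalling. In fibroblasts, Ctgf and Cyr61 are classic targets of YAP and TAZ, co-activators held back by the Hippo kinases that act on DNA through TEAD factors, and Ctgf is also a well-known target of TGF-beta signalling. Amotl2, an angiomotin family member, binds YAP and restrains it, so that it is both a target and a feedback inhibitor of the pathway.

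Promoter sequences were examined because several of these genes are read as TEAD targets. RefSeq's table for GRCm38.p6 held an entry for 3 of the 7 genes, Cyr61, Ankrd1 and Amotl2, and the 250 bases before each start were searched on both strands for the TEAD core GGAATG. All 3 windows held it: Ankrd1 had 2 matches, and Cyr61 and Amotl2 had 1 each. Of the 32851 windows of that length in the table, 12.6% held at least 1. The Cyr61 window (chr3:145649986-145650235, minus strand) is shown whole, 5′ to 3′, with the match in capitals, 103 to 98 bases before the start, and lies outside every exon of the GENCODE vM21 annotation.
Cyr61: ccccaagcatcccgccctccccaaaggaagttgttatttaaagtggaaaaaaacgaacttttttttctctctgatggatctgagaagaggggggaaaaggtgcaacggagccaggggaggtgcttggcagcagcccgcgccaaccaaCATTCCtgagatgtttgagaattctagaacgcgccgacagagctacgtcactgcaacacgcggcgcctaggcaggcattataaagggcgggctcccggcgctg

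The windows of Ankrd1 and Amotl2 overlap exons annotated in GENCODE vM21, so only 30 bases around each match are shown, again 5′ to 3′ on the gene's strand with the match in capitals. The Ankrd1 stretches are at chr19:36120037-36120066 and chr19:36119950-36119979 on the minus strand, and the Amotl2 stretch is at chr9:102717727-102717756 on the plus strand. The starts are those of RefSeq, and each stretch lies inside the span of its gene in GENCODE vM21, given below.
Ankrd1, 210 to 205 bases before the start: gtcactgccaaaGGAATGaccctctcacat
Ankrd1, 123 to 118 bases before the start: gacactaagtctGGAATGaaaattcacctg
Amotl2, 65 to 60 bases before the start: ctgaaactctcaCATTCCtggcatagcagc

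The same 3 windows held no match to TGANTCA (AP-1), which 6.75% of all windows held, to ACANNNTGT (glucocorticoid receptor), held by 5.84%, or to the SRF CArG box, held by 1.47%. These matches describe letters in the windows and not binding.

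Libraries held 21409988 to 27875023 counts, and the 7 genes had between 403 (Ankrd1) and 27876 (Ctgf) counts in single libraries. The knocked-down gene, listed as Rfwd2, was at 25.0 to 29.7 CPM in siCTRL libraries and 4.33 to 5.79 CPM in siCop1 libraries, and the glucocorticoid-induced Fkbp5 was at 33.4 to 52.3 CPM without and 584 to 727 CPM with Dexa, so both labels were borne out. CPM are counts scaled to library size with TMM factors. Fibroblast markers summed to 43640 to 60670 CPM, with Dcn (1.55 to 4.58 CPM) and Lum (0.232 to 1.67 CPM) low. Heart muscle markers (15 genes) summed to 39.5, 48.1 and 101.8 CPM in siCTRL DMSO without Dexa and to 145.5, 135.7 and 45.3 CPM in replicate 2 of the other 3 siCTRL groups, against 6.29 to 10.7 CPM in the other 18 libraries. Myh6, the cardiac myosin heavy chain, was at 4.08 to 29.96 CPM in those 6 libraries. This bears on Ankrd1, which heart muscle expresses strongly. As an alternative chosen after seeing the data, results were also computed without the 3 replicate 2 libraries; the other 3 make up the whole siCTRL DMSO group without Dexa and stayed in.

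Marker sums of other cell types also differed with siCop1, and that of fibroblasts with KL001 too. Without Dexa, fibroblast markers summed to 57310 to 60670 CPM in siCTRL DMSO and 50880 to 52410 CPM in siCop1 DMSO. Of these 12 genes 3 were lower and 0 higher with siCop1 (16.6% and 12.8% of all genes). In siCTRL KL001 without Dexa they summed to 50170 to 54850 CPM, with 5 lower and 0 higher than in DMSO (3.51% and 3.22% of all genes). Macrophage markers summed to 4.73 to 10.8 CPM in siCTRL and 7.68 to 18.6 CPM in siCop1 libraries. Of the 4 tested, 1 to 3 were higher in each setting, where 12.8% to 14.5% of all genes were. Skeletal muscle markers summed to 4.855 to 14.08 CPM in siCTRL and 2.964 to 6.958 CPM in siCop1 libraries. Endothelial markers summed to 1.396 to 3.932 CPM in siCTRL and 0.9309 to 2.356 CPM in siCop1 libraries. Epithelial markers summed to 27.3 to 46.8 CPM in siCTRL and 36.4 to 81.1 CPM in siCop1 libraries. Of these 10 genes 3 were higher and 0 lower with siCop1 in DMSO with Dexa (14.4% and 16.7% of all genes). With Dexa in siCop1 DMSO 3 were higher and 1 lower (12% and 11.6%). Every other simple comparison had 0 or 1 of them higher. The part of these in the results was not tested.

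**Figure D1:**
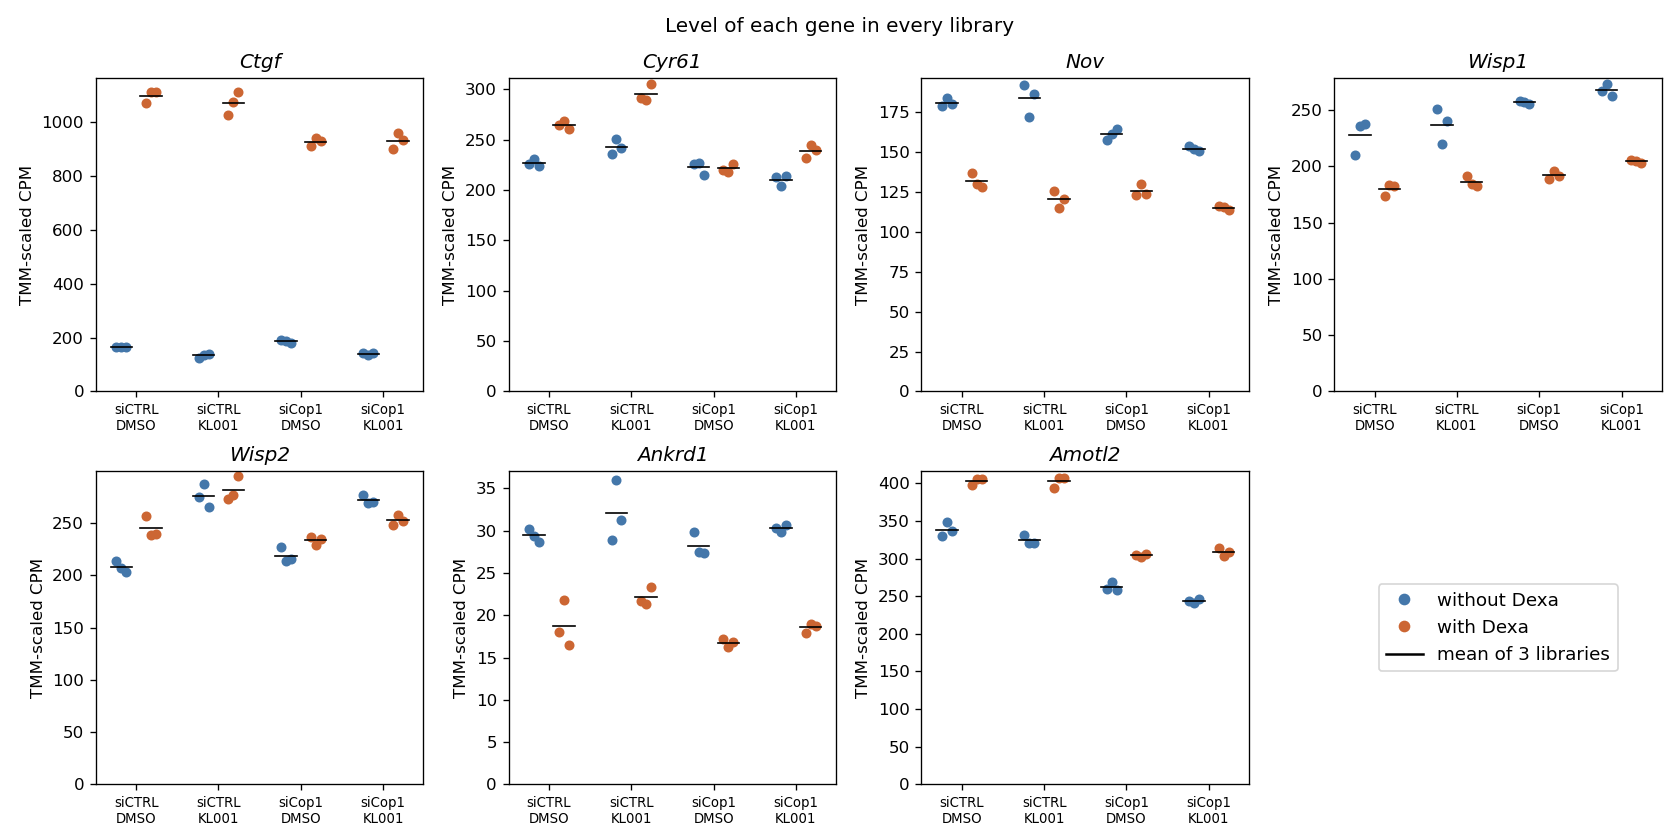
Level of each of the 7 genes in all 24 libraries, in TMM-scaled CPM on axes that start at 0; points are libraries, black lines the mean of 3. Ctgf stood at 126 to 190 CPM without and 901 to 1114 CPM with Dexa, whereas Nov, Wisp1 and Ankrd1 were lower with Dexa in all 4 settings.

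Dexa moved the CCN genes in opposite directions. Ctgf, the gene chosen for this response, had by far the largest change, and Cyr61, Wisp2 and Amotl2 rose by 16.6% to 19% in siCTRL DMSO. In the same setting Nov fell by 27.2%, Wisp1 fell by 21% and Ankrd1 fell by 36.5%. In this setting all 6 tested genes changed (3 higher, 3 lower), where 26.8% of all tested genes did. The median log2 change of these 6 genes was -0.06, against -0.008 over all genes. Here "changed", "rose" and "fell" mean an adjusted p under 0.05 in the quasi-likelihood test of edgeR, Benjamini-Hochberg adjusted over all genes. In bulk RNA, fewer expressing cells and less RNA per cell cannot be told apart.

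Ctgf (chromosome 10, 24595442 to 24598683, plus strand) was at 165, 165 and 164 CPM in siCTRL DMSO and at 1071, 1113 and 1111 CPM with Dexa. In siCTRL KL001 it went from 126, 136 and 139 CPM to 1026, 1075 and 1114 CPM. In siCop1 DMSO the values were 190, 189 and 180 CPM without and 911, 941 and 929 CPM with Dexa. Libraries with Dexa lay far above those without in each setting, and the spread within a group was small beside the step. In siCop1 KL001 the values were 142, 134 and 143 CPM and 901, 960 and 933 CPM. The fold was 6.67 in siCTRL DMSO (log2 2.74, SE 0.037), 8.01 in siCTRL KL001 (log2 3.00, SE 0.038), 4.97 in siCop1 DMSO (log2 2.31, SE 0.037) and 6.67 in siCop1 KL001 (log2 2.74, SE 0.038). By log2 change Ctgf ranked 34 in siCTRL DMSO among the 12468 genes with a mean of at least 1 CPM, and 29, 51 and 25 in the other settings in the same order.

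Cyr61 (chromosome 3, 145646976 to 145649981, minus strand), an integrin ligand first known as a serum-induced early gene, was at 226, 231 and 224 CPM in siCTRL DMSO and at 265, 269 and 260 CPM with Dexa. The groups did not overlap, and the rise was a log2 change of 0.22 (SE 0.032, edgeR adjusted p 2.17e-06). It was 0.29 in siCTRL KL001 (adjusted p 2.10e-08) and 0.18 in siCop1 KL001 (4.48e-05). In siCop1 DMSO, libraries overlapped, at 226, 227 and 214 CPM without and 220, 218 and 226 CPM with Dexa, and the log2 change was -0.007 (adjusted p 0.922).

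Amotl2 (chromosome 9, 102716672 to 102733418, plus strand) was at 330, 348 and 337 CPM in siCTRL DMSO and 398, 405 and 405 CPM with Dexa. The log2 change was 0.25 (SE 0.027, edgeR adjusted p 1.13e-08), and it was 0.31 in siCTRL KL001, 0.21 in siCop1 DMSO and 0.34 in siCop1 KL001. Amotl2 was thus the tested gene that rose with Dexa in all 4 settings, with adjusted p-values from 2.92e-11 to 3.41e-07.

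Nov (chromosome 15, 54745702 to 54754039, plus strand), a CCN protein described as a counterweight to Ctgf in matrix production, fell from 179, 184 and 180 CPM to 137, 130 and 128 CPM in siCTRL DMSO. The groups stood clear of each other, with a log2 change of -0.46 (SE 0.038, edgeR adjusted p 4.13e-11). The changes were -0.61 in siCTRL KL001, -0.36 in siCop1 DMSO and -0.40 in siCop1 KL001. Wisp1 (chromosome 15, 66891320 to 66923201, plus strand), found as a Wnt-induced gene, fell from 210, 236 and 238 CPM to 174, 183 and 183 CPM (log2 -0.34, SE 0.041, adjusted p 9.25e-08). Its changes in the other settings were -0.35, -0.42 and -0.39, all past the threshold (adjusted p 1.67e-09 to 5.56e-08).

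Wisp2 (chromosome 2, 163820861 to 163833146, plus strand), the CCN protein that lacks the carboxy-terminal cystine knot module of its relatives, rose in siCTRL DMSO from 213, 207 and 203 CPM to 257, 238 and 240 CPM (log2 0.24, SE 0.036, edgeR adjusted p 4.64e-06). With KL001 it did not pass the threshold in siCTRL (log2 0.03, adjusted p 0.617) and was lower in siCop1 (log2 -0.11, adjusted p 0.0278). That last call was lost without siCop1 KL001 replicate 1 (log2 -0.09, adjusted p 0.11) or, among libraries with Dexa, replicate 1 (-0.09, 0.111) or 3 (-0.10, 0.0717). In siCop1 DMSO its log2 change was 0.09 (adjusted p 0.0583), which passed when fitted on the compared groups alone (adjusted p 0.0034), without siCop1 DMSO replicate 1 (log2 0.12, adjusted p 0.0271) and without the 3 replicate 2 libraries with heart muscle transcripts (adjusted p 0.0393).

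Over the other 3 settings, 5 of 6 tested genes changed in siCTRL KL001 (2 higher, 3 lower; 26.8% of all genes), 4 in siCop1 DMSO (1 higher, 3 lower; 23.7% of all genes) and 6 in siCop1 KL001 (2 higher, 4 lower; 24.5% of all genes). The 3 genes that fell in every setting were Nov, Wisp1 and Ankrd1.

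**Figure D2:**
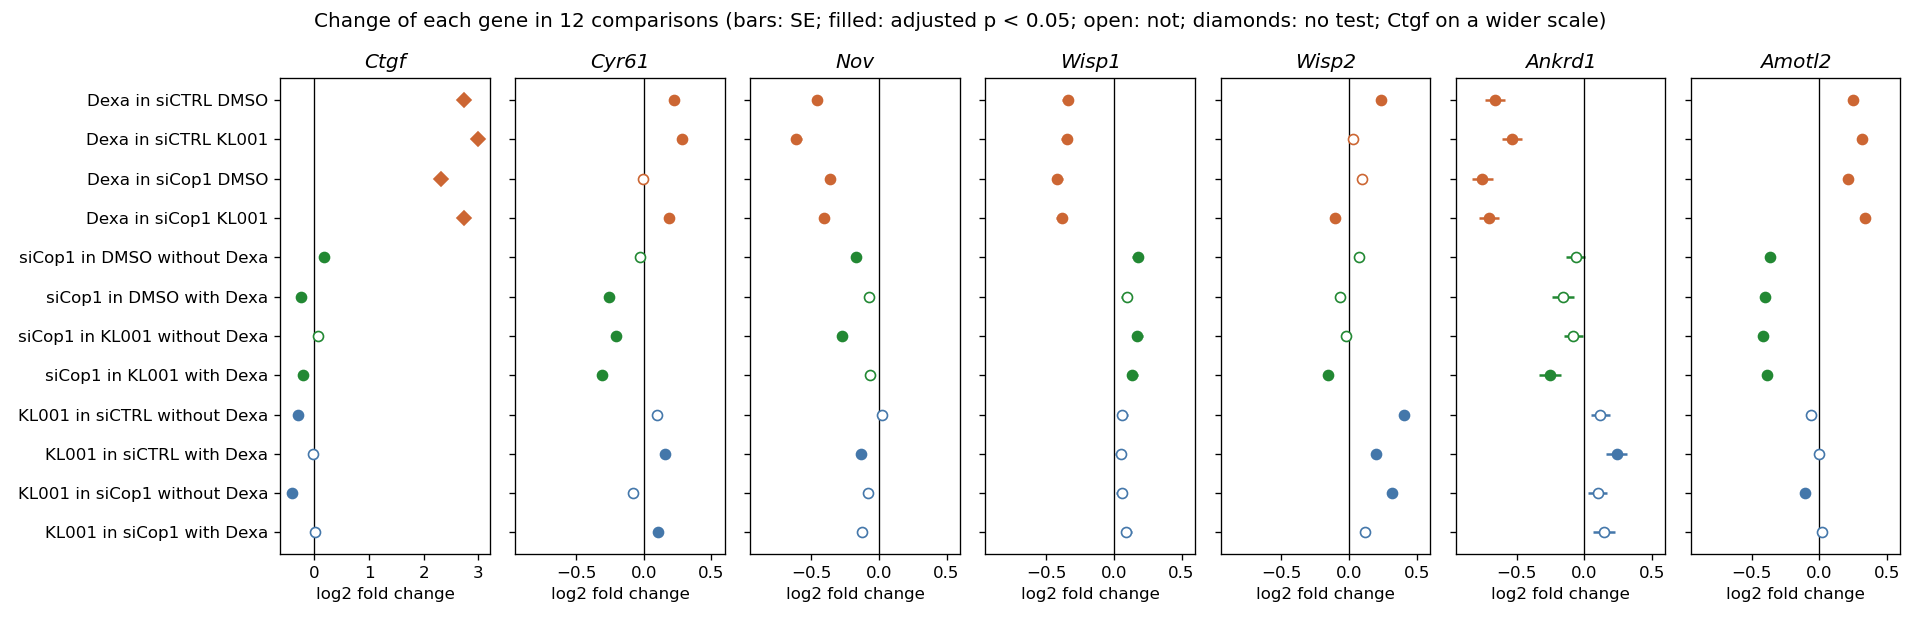
log2 fold change of each gene in the 12 comparisons, with its SE as a bar (smaller than the point where not visible). Filled points passed an adjusted p of 0.05, open points did not, and the diamonds for Ctgf with Dexa are a description without a test; Ctgf has a wider axis. Amotl2 was lower with siCop1 in all 4 settings (log2 -0.37 to -0.41), whereas Ctgf was higher in DMSO without Dexa (0.18) and lower with Dexa (-0.24).

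Knockdown of Cop1 lowered Amotl2 in every setting and moved the other genes by smaller amounts. Which of them passed varied between settings. The siCop1 by KL001 term passed for none of the 7 genes, and the siCop1 by Dexa term passed for Cyr61 in DMSO only among those tested. In DMSO without Dexa 4 of 7 genes changed (2 higher, 2 lower; 29.4% of all tested genes did), and in DMSO with Dexa 3 of 7 (all lower; 31.1% changed and 16.7% fell). In KL001 without Dexa 4 of 7 changed (1 higher, 3 lower; 32.7%), and with Dexa 6 of 7 (1 higher, 5 lower; 30.1%). Ctgf is among those counted in DMSO without and with Dexa and in KL001 with Dexa. Its calls there use libraries that also enter the Dexa effects for which it was chosen. The median log2 change of the 7 genes lay between -0.03 and -0.20 in these settings, with medians of all genes between -0.010 and 0.001.

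Amotl2 was at 259, 269 and 259 CPM with siCop1 against 330, 348 and 337 CPM with siCTRL in DMSO without Dexa. No siCop1 library reached the siCTRL range, and the log2 change was -0.37 (SE 0.027, edgeR adjusted p 8.48e-12). With Dexa the values were 304, 302 and 306 CPM against 398, 405 and 405 CPM (log2 -0.40, SE 0.027, adjusted p 9.19e-13). In KL001 the changes were -0.41 without and -0.38 with Dexa (adjusted p 7.40e-13 and 3.38e-12). Amotl2 therefore had its highest mean levels in the 2 siCTRL groups with Dexa, 402.9 ± 7.74 CPM (KL001) and 402.6 ± 4.41 CPM (DMSO; SD, n = 3 each), which overlapped, and its lowest in siCop1 KL001 without Dexa, 243.5 ± 2.30 CPM (SD, n = 3).

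Ctgf was higher with siCop1 in DMSO without Dexa, 190, 189 and 180 CPM against 165, 165 and 164 CPM (log2 0.18, SE 0.037, edgeR adjusted p 3.67e-04). With Dexa it was lower, 911, 941 and 929 CPM against 1071, 1113 and 1111 CPM (log2 -0.24, SE 0.034, adjusted p 1.59e-06). All siCop1 libraries lay above the siCTRL libraries in the first comparison and below them in the second. Both comparisons use siCTRL libraries of the Dexa effect that chose Ctgf. In KL001 the log2 change was 0.06 without Dexa (adjusted p 0.224, libraries overlapping) and -0.20 with Dexa (SE 0.034, adjusted p 3.00e-05). The difference between the effects with and without Dexa was -0.42 on the log2 scale (SE 0.050) in DMSO and -0.26 (SE 0.051) in KL001, given without a test because the choice of Ctgf used its Dexa effect.

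Cyr61 was lower with siCop1 in 3 of 4 settings. In DMSO with Dexa it was at 220, 218 and 226 CPM against 265, 269 and 260 CPM (log2 -0.26, SE 0.032, edgeR adjusted p 2.26e-07), and in KL001 its change was -0.21 without and -0.31 with Dexa (adjusted p 8.48e-06 and 8.00e-09). In DMSO without Dexa the libraries overlapped (log2 -0.03, adjusted p 0.560). The siCop1 by Dexa term in DMSO was -0.23 (SE 0.045, adjusted p 0.00746), and in KL001 -0.10 (SE 0.045, adjusted p 0.578). Cyr61 was the only 1 of the 6 genes tested whose term passed in DMSO, where 0.67% of all genes did.

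Nov was lower and Wisp1 higher with siCop1 when Dexa was absent. Nov was at 158, 161 and 165 CPM against 179, 184 and 180 CPM in DMSO (log2 -0.17, SE 0.037, edgeR adjusted p 7.80e-04), and its change in KL001 was -0.27 (adjusted p 1.19e-06). With Dexa the changes of Nov were -0.07 in both DMSO (adjusted p 0.167) and KL001 (adjusted p 0.217; 0.0494 without the 3 replicate 2 libraries with heart muscle transcripts, where the log2 change was -0.10). For Nov the siCop1 by Dexa term was 0.10 in DMSO (adjusted p 0.723) and 0.21 in KL001 (adjusted p 0.0968). The KL001 term passed without siCTRL KL001 replicate 2 (log2 0.25, adjusted p 0.00736) and without the 3 replicate 2 libraries with heart muscle transcripts (log2 0.22, adjusted p 0.0466). Wisp1 was at 258, 258 and 255 CPM against 210, 236 and 238 CPM in DMSO (log2 0.17, SE 0.040, adjusted p 0.0013) and rose likewise in KL001 (log2 0.17, adjusted p 0.00125). Its siCop1 by Dexa terms were -0.08 in DMSO (adjusted p 0.850) and -0.04 in KL001 (adjusted p 0.950), so a dependence on Dexa was not called. With Dexa the Wisp1 change was 0.09 in DMSO (adjusted p 0.0818; 0.0447 without the 3 replicate 2 libraries with heart muscle transcripts) and 0.14 in KL001 (adjusted p 0.0127; 0.0585 without siCTRL KL001 with Dexa replicate 3).

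For Wisp2, siCop1 gave a lower level in KL001 with Dexa only, 248, 258 and 252 CPM against 273, 277 and 295 CPM (log2 -0.16, SE 0.036, edgeR adjusted p 0.00118). Its log2 changes were 0.07 and -0.07 in DMSO without and with Dexa and -0.02 in KL001 without Dexa, with adjusted p-values from 0.129 to 0.727. The differences between these settings were tested as interactions, and none passed for Wisp2 (adjusted p 0.356 to 0.827 for the 4 terms that involve siCop1).

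The largest effects of KL001 on the 7 genes were a lower Ctgf level without Dexa and a higher Wisp2 level. In siCTRL without Dexa 2 of 7 genes changed (1 higher, 1 lower), where 6.73% of all tested genes did, and in siCTRL with Dexa 4 of 7 (3 higher, 1 lower; 10.6%, of which 4.98% higher and 5.58% lower). In siCop1 the counts were 3 of 7 without Dexa (1 higher, 2 lower; 4.09%, of which 1.77% higher and 2.32% lower) and 1 of 7 with Dexa (higher; 5.46%, of which 2.5% higher and 2.97% lower). Ctgf is among those counted without Dexa in both siRNAs, from libraries that also enter the Dexa effects for which it was chosen. In siCTRL with Dexa the count fell to 2 without DMSO replicate 1, KL001 replicate 2 or KL001 replicate 3, all with Dexa, and when fitted on the compared groups alone. The single call in siCop1 with Dexa, Cyr61, was lost under several alternatives given below, and DESeq2 called 3 genes there.

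Ctgf was at 126, 136 and 139 CPM with KL001 against 165, 165 and 164 CPM with DMSO in siCTRL without Dexa (log2 -0.30, SE 0.037, edgeR adjusted p 2.01e-06). In siCop1 it was at 142, 134 and 143 CPM against 190, 189 and 180 CPM (log2 -0.42, SE 0.037, adjusted p 5.18e-09). These comparisons, like those with Dexa, use libraries that also enter the Dexa effects of Ctgf, for which it was chosen. The groups did not overlap in either. With Dexa they overlapped in both, with log2 changes of -0.04 in siCTRL (adjusted p 0.587) and 0.007 in siCop1 (adjusted p 0.956). The difference between the effect with and without Dexa was 0.27 (SE 0.051) in siCTRL and 0.42 (SE 0.050) in siCop1, again without a test. The order of the Ctgf means over the 8 groups ran from siCTRL DMSO with Dexa (1099 ± 23.6 CPM) to siCTRL KL001 without Dexa (134 ± 7.21 CPM; SD, n = 3 each). In that order 3 pairs of neighbours overlapped, DMSO and KL001 with Dexa in siCTRL, the same pair in siCop1, and the 2 KL001 groups without Dexa.

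Wisp2 was at 275, 287 and 265 CPM with KL001 against 213, 207 and 203 CPM with DMSO in siCTRL without Dexa (log2 0.41, SE 0.036, edgeR adjusted p 4.46e-09). In siCop1 without Dexa it was at 277, 269 and 270 CPM against 227, 214 and 215 CPM (log2 0.31, SE 0.036, adjusted p 5.62e-07). With Dexa, where the DMSO level was itself higher in siCTRL, the change was 0.20 in siCTRL (adjusted p 3.18e-04) and 0.11 in siCop1 (adjusted p 0.0588). The last passed with RLE scaling (adjusted p 0.0439), in DESeq2 (0.0286), when fitted on the compared groups alone (0.00412) and without the 3 replicate 2 libraries with heart muscle transcripts (0.0356). The KL001 by Dexa terms of Wisp2 were -0.21 in siCTRL (adjusted p 0.325) and -0.20 in siCop1 (0.309). The first passed with no filter on low counts (adjusted p 0.0309) and the second when fitted on the compared groups alone (0.0156).

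Cyr61 was higher with KL001 in siCTRL with Dexa, 292, 290 and 306 CPM against 265, 269 and 260 CPM (log2 0.16, SE 0.032, edgeR adjusted p 0.00108). Without Dexa its log2 change was 0.10 in siCTRL (adjusted p 0.0688; 0.0328 without siCTRL KL001 replicate 1) and -0.08 in siCop1 (adjusted p 0.191). In siCop1 with Dexa it was 0.11 (adjusted p 0.0417). That call was lost with no filter on low counts (adjusted p 0.121) and with the replicate number as a block (0.0511). It was also lost without siCop1 DMSO with Dexa replicate 1 (0.137), 2 (0.161) or 3 (0.0555) or siCop1 KL001 with Dexa replicate 2 (0.203) or 3 (0.137). The KL001 by Dexa term of Cyr61 in siCop1 was 0.19 (adjusted p 0.186) and passed in DESeq2 (0.0341) and when fitted on the compared groups alone (0.0289).

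The remaining KL001 calls were small. Nov was lower in siCTRL with Dexa (log2 -0.13, SE 0.038, edgeR adjusted p 0.0254), a call lost when fitted on the compared groups alone (adjusted p 0.074), without DMSO with Dexa replicate 1 (0.156), KL001 with Dexa replicate 2 (0.168) or 3 (0.0747), and without the 3 replicate 2 libraries with heart muscle transcripts (0.0953). In siCop1 with Dexa its change of -0.13 did not pass (adjusted p 0.0521) but did in DESeq2 (0.0492), when fitted on the compared groups alone (0.00499) and without those 3 libraries (0.0173). Amotl2 was lower in siCop1 without Dexa (log2 -0.11, SE 0.027, adjusted p 0.0179). That call did not hold with no filter on low counts (adjusted p 0.124) and without siCop1 DMSO replicate 2 (0.14) or siCop1 KL001 replicate 1 (0.0634) or 2 (0.091). Wisp1 passed in none of the 4 settings, with log2 changes of 0.05 to 0.09, apart from siCop1 with Dexa when fitted on the compared groups alone (adjusted p 0.0286).

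None of the genes tested passed for an interaction other than Cyr61 in DMSO. In edgeR 0 of 6 genes passed for siCop1 by Dexa in KL001 (0.562% of all genes; 3 genes at an unadjusted p under 0.05, 0 in DESeq2). For KL001 by Dexa 0 of 6 passed in siCTRL (0% of all genes; 2 unadjusted, 0 in DESeq2) and 0 of 6 in siCop1 (0.0677%, of which 0.0474% higher and 0.0203% lower; 3 unadjusted, 1 in DESeq2). For siCop1 by KL001 0 of 7 passed without Dexa (0% of all genes; 2 unadjusted, 0 in DESeq2) and 0 of 7 with Dexa (0.0677%; 0 unadjusted, 0 in DESeq2).

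Ankrd1 (chromosome 19, 36111961 to 36120099, minus strand), which encodes a cardiac ankyrin repeat protein found in the nucleus and the sarcomere, was lower with Dexa in every setting. In siCTRL DMSO it fell from 30.2, 29.4 and 28.7 CPM to 17.98, 21.8 and 16.5 CPM (log2 -0.66, SE 0.074, edgeR adjusted p 3.18e-08). In siCop1 DMSO it fell from 29.8, 27.5 and 27.3 CPM to 17.2, 16.3 and 16.8 CPM (log2 -0.75, SE 0.075, adjusted p 3.47e-09). The groups did not overlap in either setting. The changes with KL001 were -0.53 in siCTRL and -0.70 in siCop1 (adjusted p 7.35e-07 and 8.98e-09).

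Within each siCTRL group but KL001 with Dexa, the library with the most heart muscle markers also had the most Ankrd1. In siCTRL DMSO without Dexa the markers summed to 101.8, 39.5 and 48.1 CPM and Ankrd1 was at 30.2, 29.4 and 28.7 CPM. In siCTRL DMSO with Dexa the markers summed to 10.7, 145.5 and 8.61 CPM and Ankrd1 was highest in the same replicate 2, and in siCTRL KL001 without Dexa they summed to 9.59, 135.7 and 10.6 CPM and Ankrd1 was at 28.9, 36.0 and 31.2 CPM. In siCTRL KL001 with Dexa the order was the reverse: replicate 2, with 45.3 CPM of markers, had 21.3 CPM of Ankrd1 against 21.7 and 23.3 CPM. Myh6 was at 0 to 0.121 CPM in all siCop1 libraries. The Dexa change of Ankrd1 there was -0.75 in DMSO and -0.70 in KL001. Without the 3 replicate 2 libraries, the Dexa change was -0.77 in siCTRL DMSO (adjusted p 1.39e-11) and -0.42 in siCTRL KL001 (adjusted p 5.78e-06).

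All 3 libraries of siCTRL DMSO without Dexa held the markers, and their part in comparisons with that group was not tested.

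The siCop1 and KL001 effects on Ankrd1 were small, and single libraries decided their calls. With siCop1 it was lower in KL001 with Dexa, 17.9, 19.0 and 18.7 CPM against 21.7, 21.3 and 23.3 CPM (log2 -0.25, SE 0.078, edgeR adjusted p 0.0144). That call was lost without siCTRL KL001 with Dexa replicate 3 (log2 -0.21, adjusted p 0.081) or siCop1 KL001 with Dexa replicate 1 (-0.23, 0.0612). It was stronger without the 3 replicate 2 libraries with heart muscle transcripts (-0.28, 0.00102). In the other settings the change was -0.06 to -0.16 (adjusted p 0.140 to 0.561), and the value in DMSO with Dexa, -0.16, moved with single libraries. It was -0.24 (adjusted p 0.0299) without siCTRL DMSO with Dexa replicate 3 and -0.04 (adjusted p 0.678) without the 3 replicate 2 libraries with heart muscle transcripts. With KL001 in siCTRL with Dexa the libraries overlapped and the log2 change was 0.24 (adjusted p 0.0422), lost when fitted on the compared groups alone (0.0922). It was also lost without DMSO replicate 1 (log2 0.21, adjusted p 0.159) or 3 (0.16, 0.242) or KL001 replicate 1 (0.26, 0.0748), 2 (0.27, 0.0609) or 3 (0.20, 0.186), all with Dexa. Without the 3 replicate 2 libraries with heart muscle transcripts it was 0.38 (adjusted p 4.88e-04).

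**Figure D3:**
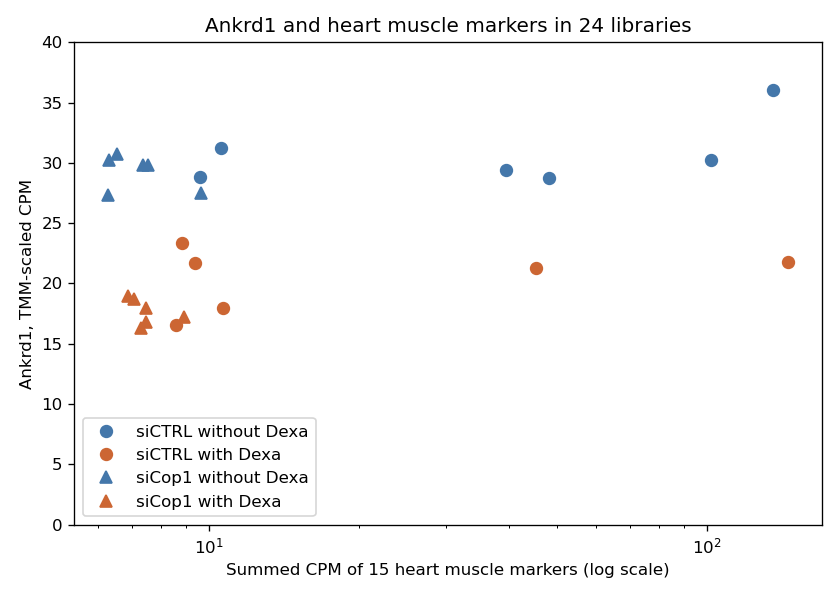
Ankrd1 (TMM-scaled CPM, axis from 0) against the summed CPM of 15 heart muscle markers (log axis) in the 24 libraries, coloured by Dexa and shaped by siRNA. Among libraries with marker sums under 11 CPM, those with Dexa stood at 16.3 to 23.3 CPM of Ankrd1 and those without at 27.3 to 31.2 CPM. None of them is from siCTRL DMSO without Dexa, and the part of the markers was not tested.

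The upstream pathway and other YAP targets were examined with lists of genes. Among 25 further YAP/TAZ-TEAD targets, 24 were tested. With siCop1 in DMSO without Dexa 12 of these 24 fell and 2 rose (16.6% and 12.8% of all genes), with a median log2 change of -0.11 against -0.010 over all genes. In DMSO with Dexa 11 were lower and 1 higher with siCop1 (16.7% and 14.4% of all genes). The counts in KL001 were 11 lower and 1 higher without Dexa (18.2% and 14.5%) and 13 and 1 with Dexa (16.3% and 13.7%). The largest decrease was that of Igfbp3, a secreted binder of insulin-like growth factors, from 22.2 ± 1.08 to 3.86 ± 0.743 CPM (SD, n = 3; log2 -2.52, SE 0.111, edgeR adjusted p 2.81e-16). Ccdc80, a matrix-associated protein, fell by 0.56 on the log2 scale and Gadd45a, a growth arrest gene, by 0.34. Fjx1 (log2 0.23, adjusted p 0.017) and F3 (0.16, adjusted p 0.00556) were higher. Fjx1 lost the call without siCTRL DMSO replicate 3 (0.0906) or siCop1 DMSO replicate 2 (0.132) or 3 (0.0518), and F3 without replicate 2 of siCTRL DMSO (0.0524) or siCop1 DMSO (0.0632).

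With Dexa in siCTRL DMSO the same list was split, with 6 genes higher and 5 lower (12.7% and 14.1% of all genes) and a median of -0.02. Nt5e, an ecto-nucleotidase, went up from 28.7 ± 0.320 to 51.3 ± 0.272 CPM (SD, n = 3; log2 0.84, edgeR adjusted p 4.39e-13), F3, tissue factor, rose by 0.76 and Dock5 by 0.60. Tgfb2 (-0.56), Asap1 (-0.50) and Gadd45a (-0.42) fell. With KL001 in siCTRL without Dexa 2 rose and 2 fell (3.22% and 3.51% of all genes). Igfbp3 fell by 0.92 and Ccdc80 by 0.18 on the log2 scale, and F3 rose by 0.31. Asap1 (0.12, adjusted p 0.0428) lost its call with RLE scaling (0.0506), with a replicate block (0.0524) and when fitted on the compared groups alone (0.346). It also lost it without siCTRL DMSO replicate 1 (0.208) or 3 (0.0707) or siCTRL KL001 replicate 1 (0.167) or 3 (0.123).

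Of the 28 genes of the Hippo pathway and its effectors, all tested, 5 rose and 8 fell with Dexa in siCTRL DMSO (12.7% and 14.1% of all genes), with a median of -0.07. The TEAD factors, which carry YAP and TAZ to DNA, went apart. Tead2 fell by 0.31 (edgeR adjusted p 5.96e-08) and Tead1 did not pass (-0.07, adjusted p 0.624), both named after their values were seen. Tead4 went up from 12.3 ± 0.048 to 50.2 ± 1.002 CPM (SD, n = 3; log2 2.03, SE 0.053, edgeR adjusted p 5.43e-23), and Tead3 rose by 0.43. Nuak1, a kinase related to AMPK, rose by 0.25. The atypical cadherins Dchs1 (-0.78, adjusted p 0.00505) and Fat1 (-0.62), and Amot (-0.47), a relative of Amotl2, fell. For the co-activators themselves, chosen after their values were seen, Yap1 had a log2 change of -0.07 (adjusted p 0.091) and Wwtr1, which encodes TAZ, fell by 0.30 (adjusted p 3.2e-06).

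With siCop1 in DMSO without Dexa 5 Hippo genes rose and 5 fell (12.8% and 16.6% of all genes), with a median of 0.02, so that the counts were near the shares over all genes. Vgll4, a TEAD-binding competitor of YAP, climbed from 75.3 ± 1.68 to 100.6 ± 2.17 CPM (SD, n = 3; log2 0.42, SE 0.038, edgeR adjusted p 4.56e-10), and Frmd6 rose by 0.26. Mob1b (0.21, adjusted p 0.0201) lost its call without siCTRL DMSO replicate 1 (0.107) or siCop1 DMSO replicate 3 (0.0742). Wwc1 (-0.37), Tead3 (-0.27) and Vgll3 (-0.24) fell. With KL001 in siCTRL without Dexa 1 rose and 1 fell (3.22% and 3.51% of all genes). Wwc1 (0.15, adjusted p 0.012) lost its call when fitted on the compared groups alone (0.18) and without siCTRL DMSO replicate 2 (0.0526). Fat4 (-0.29, adjusted p 0.038) lost it with a replicate block (0.0553), when fitted on the compared groups alone (0.136) and without the 3 replicate 2 libraries with heart muscle transcripts (0.221). It also lost it without replicate 2 (0.149) or 3 (0.132) of siCTRL DMSO or replicate 2 (0.174) or 3 (0.112) of siCTRL KL001.

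Of 16 receptors described for CCN proteins, 14 were tested. With Dexa in siCTRL DMSO 6 rose and 2 fell (12.7% and 14.1% of all genes), with a median of 0.01. Fgfr2 (log2 0.59), the fibronectin receptor subunit Itga5 (0.49) and the syndecan Sdc4 (0.43) rose, and the integrin subunit Itgb3 (-0.92) and Igf2r (-0.24) fell. With siCop1 in DMSO without Dexa 1 rose and 4 fell (12.8% and 16.6% of all genes), with a median of -0.010: Itga6 (0.35) was higher and Ddr1 (-0.31), Fgfr2 (-0.29) and Itgb5 (-0.13) were lower. With KL001 in siCTRL without Dexa only Fgfr2 passed (-0.19, edgeR adjusted p 0.00463; 3.51% of all genes fell), and it lost the call when fitted on the compared groups alone (0.165) and without siCTRL DMSO replicate 2 (0.0542).

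Among 25 genes of TGF-beta signalling, all tested, 5 rose and 12 fell with Dexa in siCTRL DMSO (12.7% and 14.1% of all genes), with a median of -0.15. Edn1, which encodes endothelin-1, went up from 9.50 ± 0.923 to 26.1 ± 0.677 CPM (SD, n = 3; log2 1.45, SE 0.079, edgeR adjusted p 3.47e-15). The co-receptor Tgfbr3 (1.04) rose. Thbs1, the matricellular thrombospondin, fell from 3659 ± 274 to 1789 ± 174 CPM (SD, n = 3; log2 -1.03), and Smad3 (-0.78) and Tgfb3 (-0.57) fell too. With siCop1 in DMSO without Dexa 3 rose and 8 fell (12.8% and 16.6% of all genes), with a median of -0.05. Tgfbr3 (0.36), Tgfb1 (0.26) and Tgif1 (0.16) were higher, and Edn1 (-0.74), Smad6 (-0.37) and Tgfb2 (-0.27) lower. With KL001 in siCTRL without Dexa 6 fell and 0 rose (3.51% and 3.22% of all genes), with a median of -0.04, led by the latent TGF-beta binding protein Ltbp2 (-0.50), Thbs1 (-0.48) and Edn1 (-0.39). Edn1 lost that call when fitted on the compared groups alone (adjusted p 0.0878) and without siCTRL DMSO replicate 1 (0.0859). The lists share Ptpn14 (YAP targets and Hippo) and Tgfb2 (YAP targets and TGF-beta).

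**Figure D4:**
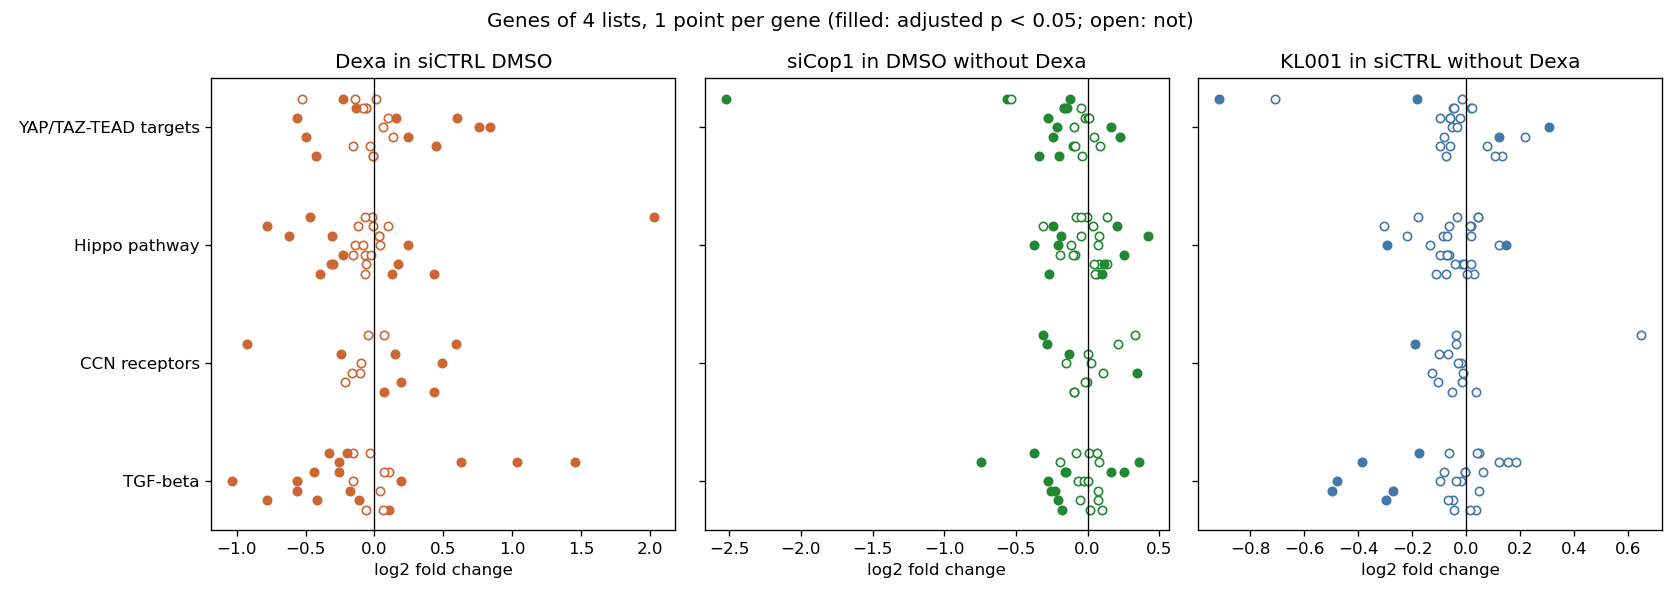
log2 fold change of each tested gene of the 4 lists in 3 comparisons, 1 point per gene and a separate axis per panel; filled points passed an adjusted p of 0.05. With siCop1, 12 of 24 YAP/TAZ-TEAD targets fell and 2 rose (16.6% and 12.8% of all genes). The point at 2.03 in the Dexa panel is Tead4.

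Compared per length, the order of levels among the 7 genes changed with Dexa. Lengths are the merged exons in GENCODE vM21, and the annotation behind the authors' counts is unstated in the sources used. In siCTRL DMSO without Dexa Cyr61 had 112 ± 1.78 CPM per kb and Wisp2 108 ± 2.65 CPM per kb, above Nov (63.2 ± 0.846), Ctgf (57.6 ± 0.248), Amotl2 (53.8 ± 1.47), Wisp1 (40.9 ± 2.76) and Ankrd1 (10.2 ± 0.262; SD, n = 3 each). With Dexa Ctgf stood first at 384 ± 8.25 CPM per kb, followed by Cyr61 at 131 ± 2.11 (SD, n = 3 each), and Ankrd1 stayed last at 6.50 ± 0.933.

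The genes with the most similar pattern were found by Pearson's r of log2 CPM over the 24 libraries. These libraries share groups and separate by Dexa, so that r is mostly a statement on the group means. For Ctgf they were Pdp1 (r = 0.997), Foxred2 (0.997) and Per1 (0.996). For Cyr61 they were Lrrc59 (0.946) and Ctps (0.925), for Nov Rnd3 (0.977), Il17rd (0.975) and Tlr2 (0.972), and for Wisp1 Gcnt4 (0.977), Mecom (0.974) and Specc1 (0.974). Ankrd1 was nearest to Styk1 (0.966), Tnk2 (0.961) and Ehbp1l1 (0.955), Amotl2 to Sorbs2 (0.979), Plpp1 (0.978) and Tnfaip8l3 (0.977), and Wisp2 to Mgat4b (0.891), Lamp1 (0.867) and Rps19 (0.854). No gene among the 7 was another's nearest match.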

How the data were processed

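RNA of mouse embryonic fibroblasts was sequenced as stranded mRNA libraries on 3 lanes, per the labels' protocols. The submitters' processing notes name bcl2fastq 1.8.4, STAR 2.4.5a, featureCounts with Subread 1.4.6-p3, Picard 1.126, DESeq2 and the build GRCm38 (mm10); the annotation and strand setting are unstated in the sources used. The authors deposited raw read counts per gene symbol for 24 libraries, and 0 columns were left unused. Of 47480 genes 28837 had a count. No replicate files were identical, and replicates differed by more than sampling noise (chi-square per degree of freedom 1.57 to 8.54).

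Tests ran in R 4.3.3 with edgeR 4.0.16 (limma 3.58.1 loaded with it) on all 24 libraries with 1 mean per group. The steps were filterByExpr (minimum count 10, total 15), TMM scaling and the robust quasi-likelihood test, two-sided, Benjamini-Hochberg over 14772 genes, threshold 0.05, for 12 simple effects and 6 interactions. The script was tested on simulated counts. SE is the unshrunken log2 change divided by the root of F. Alternatives were RLE scaling, no filter, DESeq2 1.42.0, a block for the replicate number, a fit to the compared groups alone, leaving out each library and, chosen after seeing the data, leaving out 3 of the 6 libraries with heart muscle markers over 30 CPM (the other 3 are a whole group). The labels give no batch. PCR copies were not told apart.

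The members and lists were chosen with earlier results of these data known. Named list genes are the up to 3 highest and 3 lowest changed genes of each list with a mean of at least 1 CPM; similar genes are the 3 with the highest r, without predicted genes and pseudogenes (Gm symbols, Rik and -ps endings). Fkbp5 and Rfwd2 check the labels. Of the genes these rules name, 2 are not reported here.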

Additional observations from a re-analysis of the deposited data

Results flagged for a closer look

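Effects of siCop1 that differed with Dexa were looked at again. For Cyr61 in DMSO the siCop1 by Dexa term was -0.23 on the log2 scale (SE 0.045, edgeR adjusted p 0.00746), since siCop1 libraries overlapped siCTRL libraries without Dexa and lay below all of them with Dexa. The term was between -0.25 and -0.21 with each library of the 4 groups left out in turn (adjusted p 0.00407 to 0.0368).

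For Ctgf in DMSO every siCop1 library lay above the siCTRL libraries without Dexa and below them with Dexa, and the term was -0.42 (SE 0.050). This difference was not tested, because Ctgf was chosen for its Dexa effect. The pattern was not particular to Ctgf. For Fkbp5 in DMSO the siCop1 change was 0.48 without and -0.29 with Dexa, and the term was -0.76 (SE 0.048). Of 10 glucocorticoid-induced genes in DMSO, siCop1 raised 2 and lowered 3 without Dexa (12.8% and 16.6% of all genes). With Dexa it raised 0 and lowered 7 (14.4% and 16.7%).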

How the results depend on the processing

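No called result changed sign. Over the named genes' log2 changes, the call, and its direction where called, stayed as reported in 178 results with RLE scaling, 177 with no filter on low counts, 177 with DESeq2, 177 with a replicate block, 167 when only the compared groups were fitted, 172 without the 3 replicate 2 libraries with heart muscle transcripts (chosen after seeing the data) and 1288 with 1 library left out. A call was lost in 1, 2, 0, 3, 7, 2 and 40 results and gained in 1, 1, 3, 0, 6, 6 and 4, in that order. Counts of genes called for Dexa and for siCop1, and of the 7 genes among them, stayed within 1.5 times of those reported under every setting; the KL001 and interaction counts did not, and the cause was not tested.

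Fitting only the compared groups gave 225 genes for KL001 in siCTRL without Dexa (994 reported), and in siCop1 933 without Dexa (604) and 1426 with it (807). Of the 7 genes it called 2 for KL001 in siCTRL with Dexa (4 reported) and 4 in siCop1 with Dexa (1). It called 52 genes for siCop1 by Dexa in KL001 (83) and, for KL001 by Dexa in siCop1, 23 genes (10) with 2 of the 6 tested (0). RLE scaling called 2 of the 7 genes for KL001 in siCop1 with Dexa and 5 genes for KL001 by Dexa in siCop1. With no filter, 0 of the 7 were called for KL001 in siCop1 with Dexa. The siCop1 by Dexa terms then numbered 230 in DMSO (99 reported) and 156 in KL001, the KL001 by Dexa terms 133 in siCTRL (0 reported; 1 of the 6 genes) and 43 in siCop1, and the siCop1 by KL001 terms 61 without Dexa (0) and 59 with Dexa (10). DESeq2 called 3 of the 7 genes for KL001 in siCop1 with Dexa. For KL001 by Dexa it called 3 genes in siCTRL and 1 of the 6 in siCop1, and for siCop1 by KL001 15 genes without and 24 with Dexa.

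Replicate numbers are shared by all groups. Over 84 same-numbered pairs the correlation of deviations from group means was -0.432 to 0.566, median 0.0216, over 0.1 in 21. Over 168 pairs of other numbers it was -0.609 to 0.441, median 0.00085, over 0.1 in 40. These values pool all groups, and pairing within only some of the groups was not tested. With the replicate block 0 of the 7 genes were called for KL001 in siCop1 with Dexa, 5 genes for KL001 by Dexa in siCop1 and 5 for siCop1 by KL001 with Dexa. Without the 3 replicate 2 libraries with heart muscle transcripts, 3 of the 7 genes were called for KL001 in siCop1 with Dexa and 1 of the 6 for siCop1 by Dexa in KL001. That setting called 1 gene for KL001 by Dexa in siCTRL, and 5 without and 3 with Dexa for siCop1 by KL001.

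With 1 library left out, KL001 in siCTRL called 657 to 1181 genes without Dexa (fewest without siCTRL DMSO replicate 3) and 941 to 1403 with Dexa (fewest without siCTRL DMSO with Dexa replicate 1), with 2 to 4 of the 7 genes. KL001 in siCop1 with Dexa called 504 to 614 genes (fewest without siCop1 KL001 with Dexa replicate 3) and 0 to 1 of the 7. The siCop1 by Dexa term in KL001 called 43 to 93 genes (fewest without siCop1 KL001 with Dexa replicate 2) and 0 to 1 of the 6. The other ranges were 0 to 2 genes for KL001 by Dexa in siCTRL, 1 to 7 in siCop1, and 0 to 5 without and 2 to 10 with Dexa for siCop1 by KL001. By Spearman's rho, the 3 most similar genes shared 1 with the Pearson choice for Ctgf, 2 for Cyr61, 1 for Nov, 0 for Wisp1, 2 for Wisp2, 1 for Ankrd1 and 0 for Amotl2. Ankrd1, with 403 to 876 counts per library, had the widest SE of the 7 genes.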
